A study of Mus musculus with 6 samples.

Results

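Netrins and their receptors were followed across 6 expression arrays of mouse embryonic stem cells, as 8 of the 19938 genes that could be named on the array. The 8 genes were the ligands Ntn1 and Ntn4, the related receptors Neo1 and Dcc, and the UNC5 receptors Unc5a, Unc5b, Unc5c and Unc5d. They were selected by symbol. Ntn1 drew attention to the family because its lower level after p/CIP knockdown was already known from these arrays, so its values against control describe that choice and carry no test here. The other 7 were taken for their names as netrins or netrin receptors. The probe set shown for a gene was chosen by its mean over the 6 arrays, the brightest being used; only Unc5d had a second one.

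The cells were E14, an established mouse embryonic stem cell line. All of them received siRNA: a pool of non-specific siRNAs in the control group, and 1 of 2 siRNAs against p/CIP in the siRNA 1 and siRNA 2 groups, with 2 arrays in each of the 3 groups. p/CIP, encoded by Ncoa3, is a coactivator of nuclear receptors, and the study asked how its loss changes transcript levels. The labels give neither the time after transfection nor whether replicates were separate cultures, so p-values measure the spread between these arrays, which may be technical.

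Netrins are secreted, laminin-related proteins, best known for steering growing axons. Dcc and its relative neogenin (Neo1) mediate attraction, while UNC5 receptors mediate repulsion, alone or together with Dcc. Several of these receptors are called dependence receptors, since they can trigger cell death when no netrin is bound. In mouse embryonic stem cells netrin-1 is known to act through Neo1 and Unc5b in self-renewal.

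Values are on a log2 scale, and array medians over the genes lay between 7.77 and 7.84. Ncoa3, the target, was 2.81-fold lower with the siRNAs than in control (log2 difference -1.49, standard error 0.0964), and lower on each knockdown array than on both controls. Of 10 stem cell markers, all 10 had mean values above 7.81, the median gene mean; Pou5f1 averaged 12.8 and Nanog 12.7. Array siRNA 1 replicate 2 stood apart from the others, with an interquartile range of 3.13 against 3.33 to 3.45, and several values are given without it too.

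**Figure D1:**
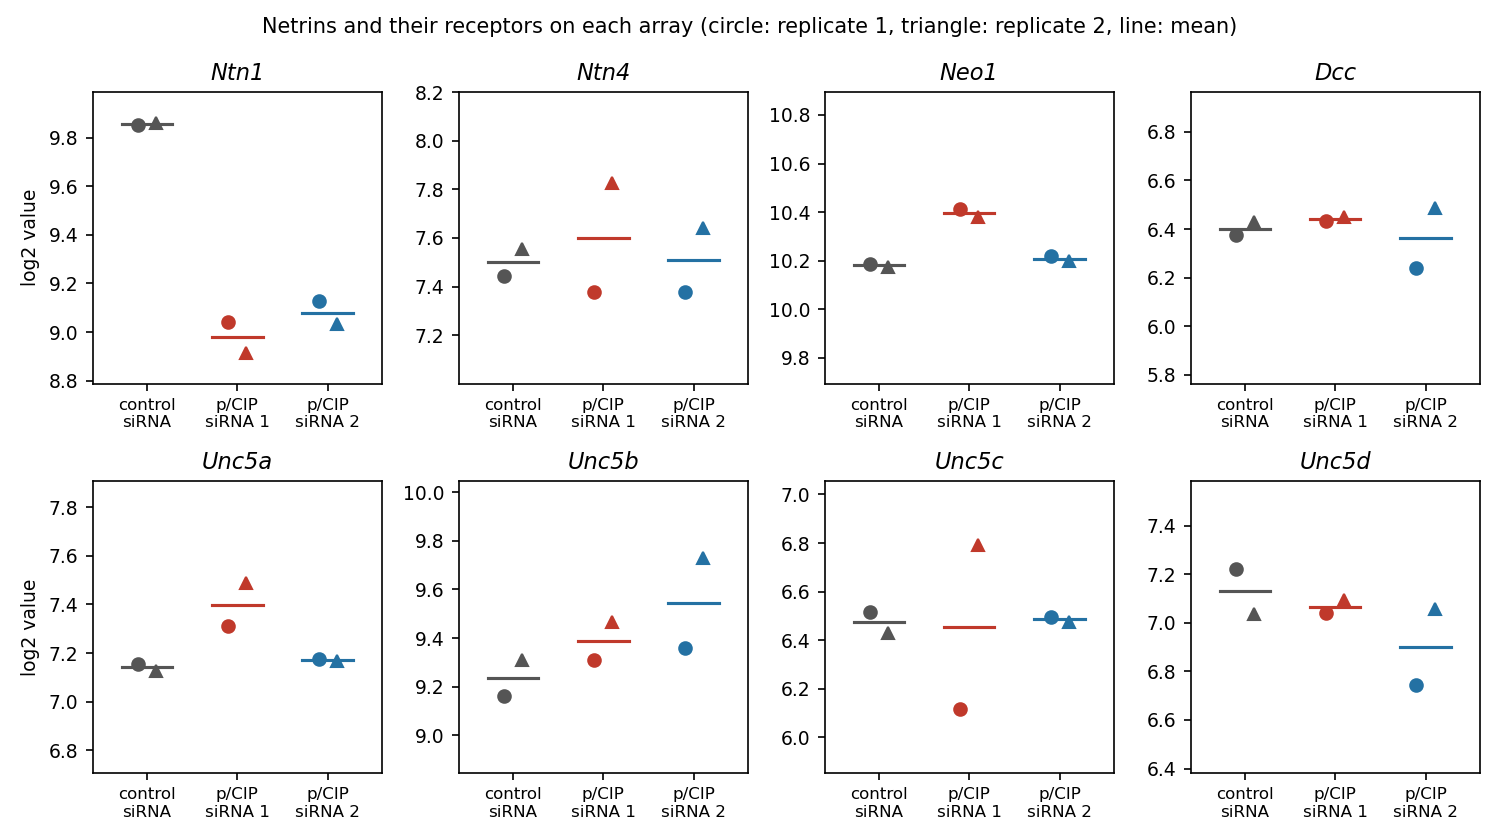
Log2 values of the 8 genes on each of the 6 arrays by siRNA group (circles, replicate 1; triangles, replicate 2; lines, group means of 2 arrays; each panel spans the same log2 range). Ntn1 is lower on all 4 knockdown arrays, Neo1 and Unc5a are highest with siRNA 1, and Unc5b is higher on the replicate 2 array in each group.

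Ntn1 encodes netrin-1, the ligand of Dcc, Neo1 and the UNC5 receptors. Its control values were 9.85 and 9.86, while siRNA 1 gave 9.04 and 8.91, and siRNA 2 gave 9.13 and 9.03. The 4 knockdown arrays lay 0.72 or more below the lower control, while the controls differed from each other by only 0.0111. Levels thus ran from control through siRNA 2 to siRNA 1, and the ranges of the 2 knockdown groups overlapped.

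Against control, Ntn1 was 1.77-fold lower over both siRNAs (log2 difference -0.83, standard error 0.0737), which is 56.4% of the control level. It was at 54.4% of control with siRNA 1 (-0.88, standard error 0.0852) and at 58.4% with siRNA 2 (-0.78, standard error 0.0852). Both comparisons use the same 2 control arrays. Within replicate 1 the differences from control were -0.81 with siRNA 1 and -0.72 with siRNA 2, and within replicate 2 they were -0.95 and -0.83. In the order of pooled differences, Ntn1 stood at place 23 from the most lowered of the 19938 genes.

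The difference between the siRNAs was not used to choose Ntn1 and could be tested. Ntn1 was 0.10 higher with siRNA 2 than with siRNA 1 (95% interval -0.10 to 0.30, limma adjusted p = 0.771). Leaving out 1 array gave 0.039 (without siRNA 1 replicate 2) to 0.17 (without siRNA 1 replicate 1), and the upper bound reached 0.43 without siRNA 2 replicate 2. The size of this difference was therefore not settled by these arrays. Ncoa3 differed by -0.00 in the same contrast.

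Ntn4 encodes netrin-4, a more distant, basement membrane netrin that binds laminins. It read 7.45 and 7.55 in control, 7.38 and 7.83 with siRNA 1, and 7.38 and 7.64 with siRNA 2. All 3 groups overlapped, and the replicate 2 array was the higher one in each. The pooled difference was 0.05 (95% interval -0.28 to 0.39, limma adjusted p = 0.926). Its sign rested on array siRNA 1 replicate 2, without which it was -0.06, and on siRNA 2 replicate 2, without which it was -0.01. The interval does not reach a fall of the size seen for Ntn1.

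Neo1 encodes neogenin, which binds netrins and also the repulsive guidance molecules of the RGM family. It read 10.19 and 10.17 in control, 10.41 and 10.38 with siRNA 1, and 10.22 and 10.20 with siRNA 2. Both siRNA 1 arrays stood apart from the other 4, while the gap between siRNA 2 and control was 0.0118, about the distance between the 2 controls (0.012). Replicates lay close together, with a standard deviation within groups of 0.0173, at the 1.15 percentile of all genes.

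Neo1 was 0.22 higher with siRNA 1 than in control (95% interval 0.04 to 0.39), and 0.03 with siRNA 2 (-0.15 to 0.21). Neither passed the test across all genes (limma adjusted p = 0.353 and 0.999). From siRNA 1 to siRNA 2 the difference was -0.19 (95% interval -0.37 to -0.01, unadjusted p = 0.0405, limma adjusted p = 0.718). The same difference was -0.19 within replicate 1 and -0.18 within replicate 2. Leaving out 1 array gave -0.21 to -0.17, but each of these intervals included 0. With siRNA 1 against control, leaving out 1 array gave 0.20 (without siRNA 1 replicate 1) to 0.23 (without siRNA 1 replicate 2). The 95% interval included 0 without control replicate 1, control replicate 2 or siRNA 1 replicate 1. It did not include 0 when any other array was left out. Limma weighs each gene's spread against that of all genes, so the close replicates of Neo1 count for less here than in an unmoderated model. In that model the adjusted p was 0.314 for siRNA 1 against control and 0.532 between the siRNAs.

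Dcc encodes the classical receptor for netrin-1 in axon attraction. It read 6.38 and 6.43 in control, 6.43 and 6.45 with siRNA 1, and 6.24 and 6.49 with siRNA 2. The siRNA 2 arrays spanned the values of all the others. The pooled difference was 0.00 (95% interval -0.21 to 0.21, limma adjusted p = 0.999). All 6 values lay below the array medians, and without background measurements it is not known whether a Dcc transcript was detected at all.

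Unc5b encodes the UNC5 receptor best known from blood vessels, where it mediates repulsion by netrin-1. It read 9.16 and 9.31 in control, 9.31 and 9.47 with siRNA 1, and 9.36 and 9.73 with siRNA 2. The knockdown arrays were above both controls by a gap of only 0.00361, and in each group replicate 2 was higher than replicate 1, by 0.145 to 0.369. The pooled difference was 0.23 (95% interval -0.05 to 0.51, limma adjusted p = 0.633). With siRNA 1 the difference was 0.15, or 0.076 without siRNA 1 replicate 2. Compared within replicate numbers, the differences from control were 0.15 and 0.20 in replicate 1, and 0.16 and 0.42 in replicate 2, for siRNA 1 and siRNA 2.

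With the replicate number as a block, the unadjusted limma p for Unc5b was 0.0165 in the pooled contrast, where 17.5% of all genes were under 0.05. The limma adjusted p for Unc5b was 0.193, so the call did not change. Array siRNA 2 replicate 2 carried the most: without it the pooled difference was 0.14. Markers of extraembryonic endoderm, a cell type that stem cell cultures can form, followed the replicate numbers too, as 49.9% of all genes did in differing between replicates with 1 sign in all 3 groups. The mean of the 6 markers was 7.95, 8.09 and 8.08 on the replicate 1 arrays and 8.33, 8.63 and 8.32 on the replicate 2 arrays (control, siRNA 1 and siRNA 2). By gene, Gata6, Gata4, Dab2, Sox17 and Sox7 were higher on the replicate 2 array in each group, and Afp was not. This was not particular to endoderm: the means of endothelial and of fibroblast markers were also higher on the replicate 2 array in each group. The mean of stem cell markers was lower on it in each group, and that of neural markers was mixed. The part of these cell types in the values of Unc5b and Ntn4 was not tested. In bulk RNA more cells of a type and more RNA per cell cannot be told apart.

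Unc5a encodes another repulsive netrin receptor, found mainly in neurons. It read 7.15 and 7.13 in control, 7.31 and 7.49 with siRNA 1, and 7.17 and 7.17 with siRNA 2. As for Neo1, the siRNA 1 arrays stood above the others, while siRNA 2 lay 0.0133 above the higher control. The difference from control was 0.26 with siRNA 1 (95% interval 0.05 to 0.47, limma adjusted p = 0.349) and 0.03 with siRNA 2 (0.999). Between the siRNAs it was -0.23 (95% interval -0.44 to -0.02, unadjusted p = 0.0365, limma adjusted p = 0.718). Without array siRNA 1 replicate 2, the value with siRNA 1 was 0.17 (95% interval -0.05 to 0.39) and that between the siRNAs -0.14 (-0.36 to 0.08).

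Unc5c and Unc5d encode the remaining receptors of the family. Unc5c read 6.51 and 6.43 in control, 6.12 and 6.79 with siRNA 1, and 6.50 and 6.48 with siRNA 2. The siRNA 1 arrays were the lowest and the highest of all 6, 0.676 apart, and the within-group standard deviation of Unc5c was at the 97.8 percentile of all genes. Its pooled difference of -0.00 (95% interval -0.41 to 0.41, limma adjusted p = 0.997) became 0.17 without siRNA 1 replicate 1 and -0.17 without siRNA 1 replicate 2.

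Unc5d read 7.22 and 7.04 in control, 7.04 and 7.09 with siRNA 1, and 6.74 and 7.06 with siRNA 2. The groups overlapped, and 1 array, siRNA 2 replicate 1, was lower than the rest. The pooled difference was -0.15 (95% interval -0.40 to 0.11, limma adjusted p = 0.720), and -0.04 when both Unc5d probe sets were averaged. Leaving out 1 array moved it from -0.24 (without control replicate 2) to -0.055 (without control replicate 1), with -0.23 and -0.069 without siRNA 2 replicate 2 and replicate 1. The dimmer probe set ran the other way, at 6.30 and 6.34 in control and between 6.35 and 6.45 on the knockdown arrays. As with Dcc and Ntn4, the values of Unc5a, Unc5c and Unc5d lay below the array medians.

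**Figure D2:**
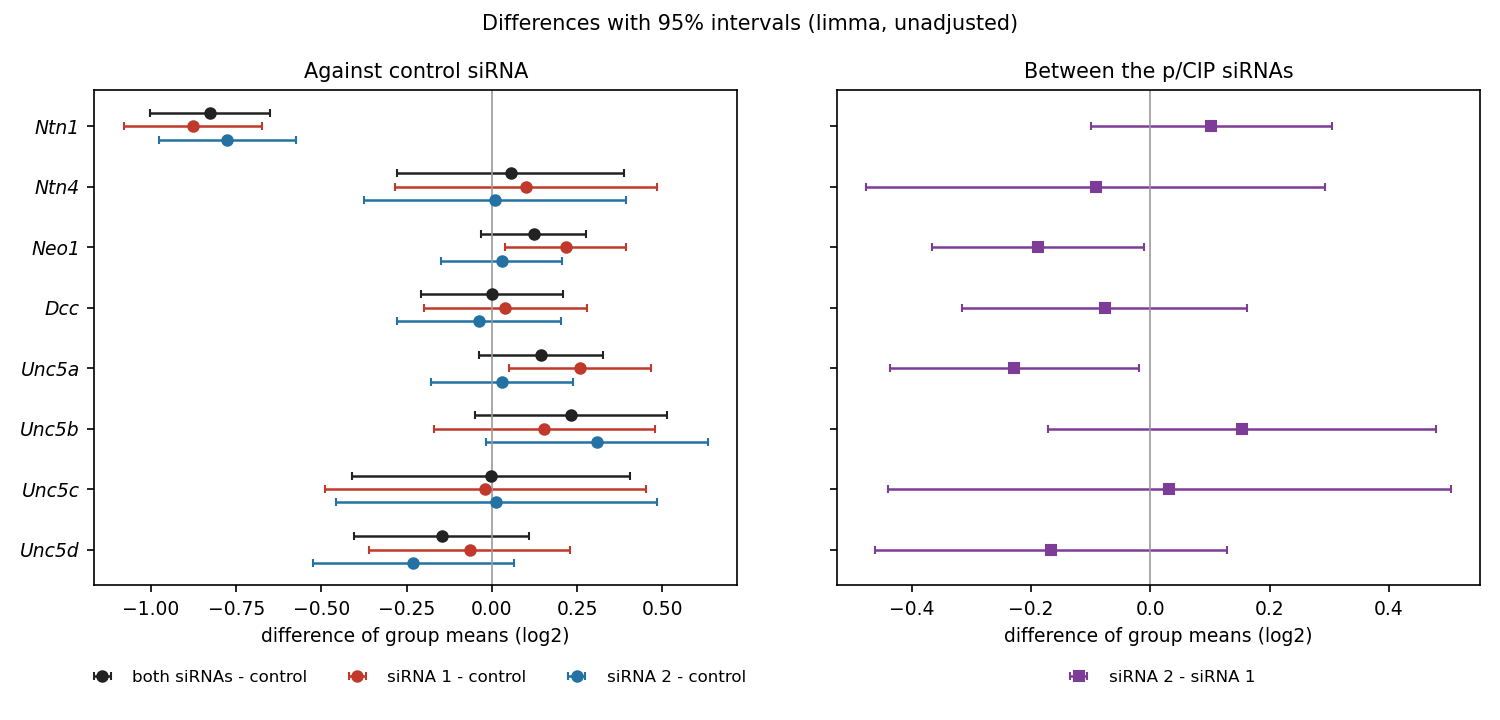
Differences between group means on the log2 scale with 95% limma intervals, not adjusted for the number of genes (left, each comparison with the 2 control arrays; right, siRNA 2 minus siRNA 1). Ntn1 lies between -0.88 and -0.78 in all 3 comparisons with control; the intervals of the other genes against control include 0 except those of Neo1 and Unc5a with siRNA 1.

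Over the family, 1 of 8 genes was called in the pooled contrast (limma adjusted p under 0.05), where 0.0702% of all genes were; it was Ntn1, which was chosen for it, so nothing is read from the count. With siRNA 1 the count was again 1 of 8, Ntn1, against 0.0702% of genes. With siRNA 2 alone it was 0 of 8, where limma called 0% of genes; with the replicate block it was 1, Ntn1 again, against 0.13% of genes. The block also gave 1, Ntn1, in the pooled contrast (0.341% of genes) and with siRNA 1 (1.21%), and 0 between the siRNAs (0.0752%). Among the other 7, limma called 0 in each contrast with or without the block. An unmoderated linear model also called 0 of the 7, but it called 0 of all genes in each contrast. At an unadjusted p under 0.05 limma found 0 of these 7 in the pooled contrast (8.72% of all genes), 2 with siRNA 1 (Neo1 and Unc5a; 12.1% of all genes) and 0 with siRNA 2 (5.25%).

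Between the siRNAs an unmoderated model called 0 of 8, and 0 of all genes. Limma also called 0 of 8, and 0% of genes. At an unadjusted p under 0.05 the count was 2, Neo1 and Unc5a again, where 6.9% of all genes were; without siRNA 1 replicate 2 both 95% intervals included 0. All 4 knockdown arrays were above both controls for 3 of 8 genes (Neo1, Unc5a and Unc5b), an order seen for 8.83% of genes, and below both for 1, Ntn1, as for 10.1% of genes. The gaps behind the 3 were at most 0.0133. Leaving out any 1 of the control or siRNA 2 arrays ended the pooled call of Ntn1 (0 of 8 called, and 0 of all genes). Aligning the array medians left Unc5b as the 1 gene above, where 9.36% of all genes were. Quantile normalization left Neo1 and Unc5b (12.3% of all genes), as did cyclic loess (10.4%). Ntn1 was below under each, as were 7.12%, 7.79% and 9.13% of all genes in the same order.

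Genes around the netrin pathway were described from 6 lists holding 78 genes, of which 67 were measured. None of the 67 was called by limma in the pooled contrast, with either siRNA or between the siRNAs, with or without the replicate block; at an unadjusted p under 0.05 there were 10 in the pooled contrast, 10 with siRNA 1, 5 with siRNA 2 and 6 between the siRNAs, against the shares of all genes given above. Of the 67, 34 lay above control and 33 below in the pooled contrast, with a median of 0.01, like that of all genes (0.01). Pooled differences are given for the 3 genes of smallest p in each list and for a few others picked after their values were seen, and none of them passed.

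Among other netrins and netrin receptors 8 of 10 lay above control (median 0.07). With siRNA 1 it was 8 of 10 (median 0.16), and with siRNA 2 it was 5 of 10 (median -0.0014). Of all genes, 47.7% lay below control in the pooled contrast, 44.5% with siRNA 1 (median 0.021) and 52.8% with siRNA 2 (median -0.0072). The cell surface receptor Mcam was at 0.21 (limma adjusted p = 0.592), the membrane-bound netrin Ntng1 at 0.13 and the laminin-binding integrin Itga6 at -0.07. Ntn3 and Ntn5, the other secreted netrins on the list, were at -0.01 and 0.09.

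Other ligands and partners of the same receptors had 6 of 14 above control (median -0.03). Robo4, an endothelial receptor that binds Unc5b, was at -0.27 (limma adjusted p = 0.451), the netrin-G1 ligand Lrrc4c at 0.19 and the latrophilin Adgrl3 at -0.12. Lrrc4c averaged 4.37 and Adgrl3 6.70, both below the array medians, and whether their transcripts were detected is not known. Of the RGM proteins that bind neogenin, Rgma was at -0.08 and Rgmb at 0.04. Flrt2 and Flrt3, membrane proteins that bind UNC5 receptors, were at -0.09 and -0.05.

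Effectors at the receptors, which link them to actin, split evenly, with 11 of 22 above control (median -0.02). Evl, a relative of the actin regulator Enah, was at 0.24 (limma adjusted p = 0.359), the ubiquitin ligase Trim67 at 0.33 and the Rac activator subunit Elmo1 at 0.35. Enah itself was at -0.19, with -0.21 for siRNA 1 and -0.17 for siRNA 2. The GTPase Rac1 was at -0.42 with siRNA 1 and 0.03 with siRNA 2, and the difference between the siRNAs of 0.46 did not pass (limma adjusted p = 0.424).

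Genes of dependence receptor cell death had 2 of 7 above control (median -0.04). The kinase gene Dapk1, which acts below Unc5b, was at 0.19 (limma adjusted p = 0.477), the initiator caspase gene Casp9 at 0.20 and the phosphatase subunit gene Ppp2r1b at -0.09.

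For kinases, phosphatases, WNT and ERK pathway genes linked to netrin-1 in stem cells, 3 of 10 lay above control (median -0.05). The WNT effector Lef1 was at 0.41 (limma adjusted p = 0.186), the ERK inhibitor Spry4 at -0.28 and the phosphatase gene Dusp6, a target of ERK signalling, at 0.16. Gsk3b and Gsk3a were at -0.13 and -0.04. Slits and their roundabout receptors, a separate guidance system, had 4 of 7 above control (median 0.04), with Slit1 at 0.17 (limma adjusted p = 0.597), Slit2 at -0.14 and Robo4 as above.

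**Figure D3:**
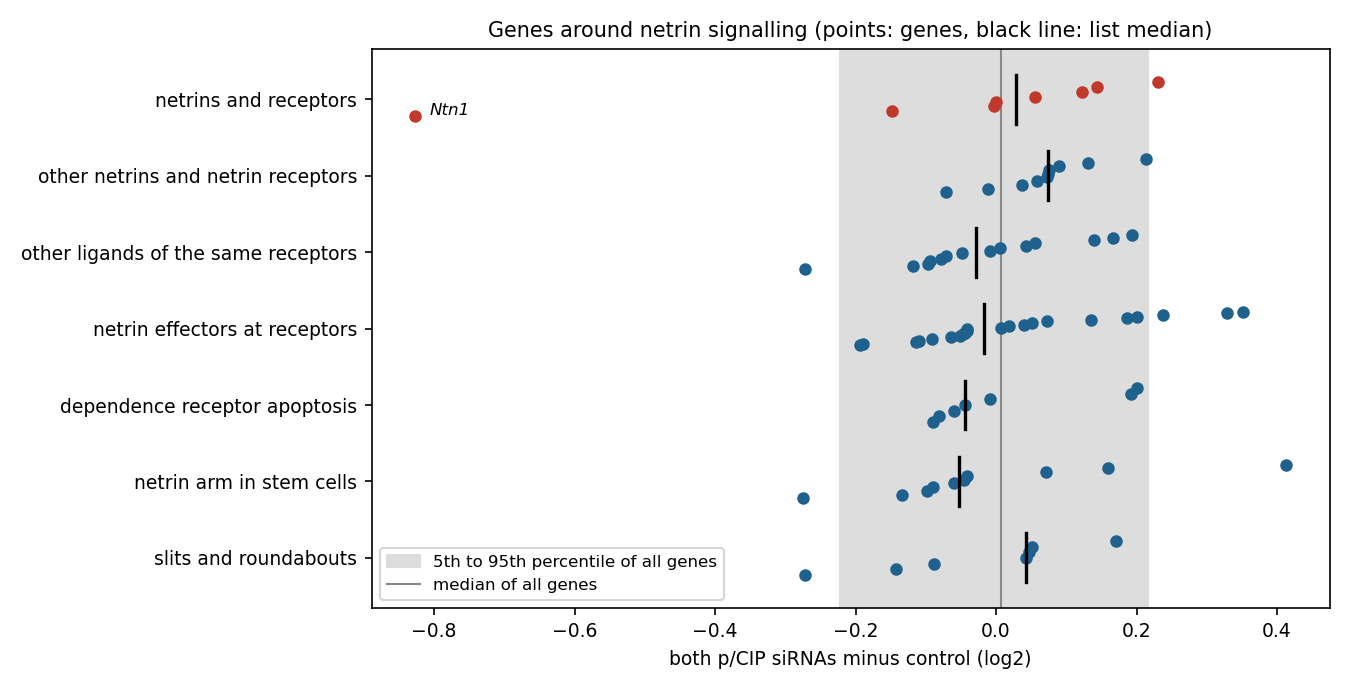
Pooled log2 difference of each measured gene in 6 lists around netrin signalling and of the 8 netrins and receptors (points, genes; black lines, medians; grey band, 5th to 95th percentile of all 19938 genes, -0.22 to 0.22). Ntn1 at -0.83 lies far outside the band, and the list medians lie between -0.05 and 0.07.

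The genes whose values ran most like those of Ntn1 over the 6 arrays were sought among 1247 brighter genes that varied by at least 0.5. The highest Pearson correlations were those of Nr0b1 (0.992), a nuclear receptor without a known ligand, Dpp4 (0.991), a cell surface peptidase, Slc47a1 (0.989), a cation exporter, Klf12 (0.984), a Kruppel-like repressor, and Trps1 (0.983), a GATA-type repressor. The values of Ntn1 fall into a control and a knockdown set, so a high correlation here largely reflects a difference between control and knockdown. They are descriptions across arrays that share their groups and replicate numbers; 46 of the 1247 genes had 0.95 or more. Since the genes were found over the same arrays, their pooled differences carry no test here. These were -0.87 for Nr0b1, -0.80 for Dpp4, -0.52 for Slc47a1, -0.50 for Klf12 and -0.52 for Trps1.

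Nr0b1 read 13.18 and 13.05 in control, 12.23 and 12.18 with siRNA 1, and 12.30 and 12.26 with siRNA 2. Its 4 knockdown arrays, like those of Ntn1, lay below both controls. Most opposite to Ntn1 were Pnpla2 (-0.986), a triglyceride lipase, Lzic (-0.984) and Nxpe3 (-0.983), with pooled differences of 0.46, 0.46 and 0.40. The correlations of the other 7 netrin genes with Ntn1 ran from -0.660 for Neo1 to 0.372 for Unc5d.

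**Figure D4:**
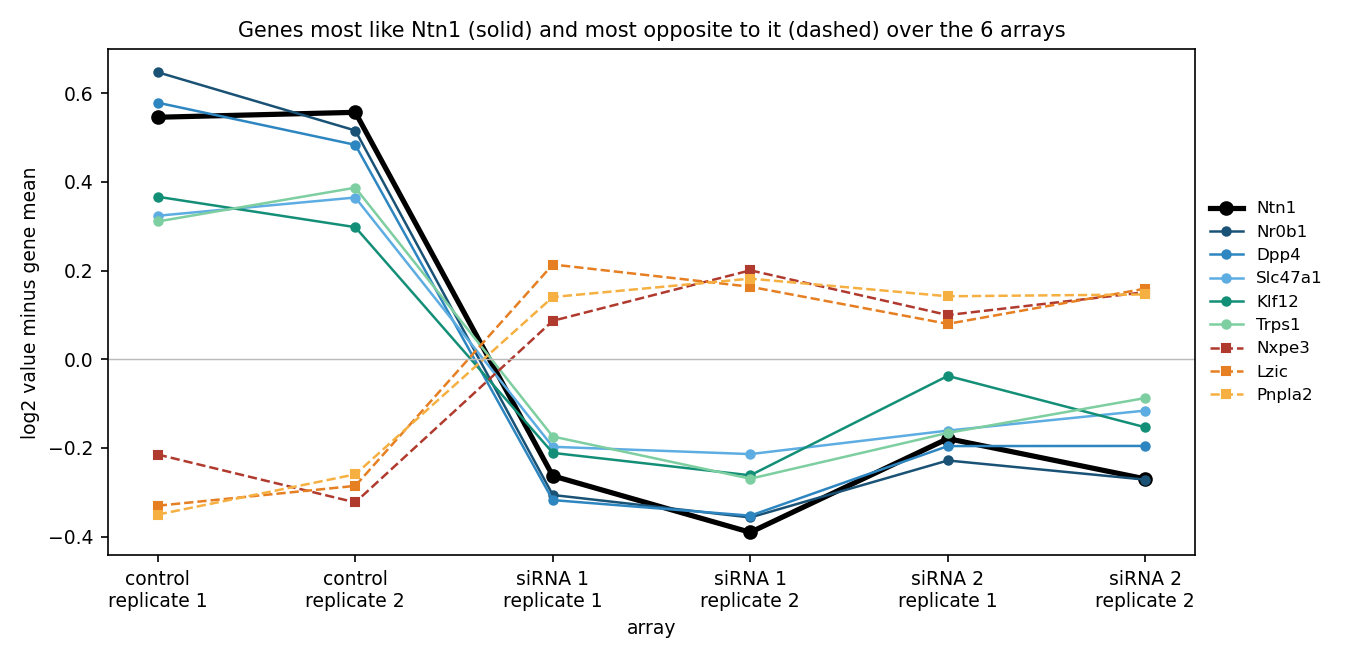
Log2 value minus each gene's mean on the 6 arrays for Ntn1 (black), the 5 genes most like it (solid) and the 3 most opposite (dashed); lines only join a gene's points. Ntn1 is above its mean on both control arrays and below it on all 4 knockdown arrays.

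Of the stem cell markers 9 of 10 lay below control (median -0.13), with Klf4 at -0.78 (limma adjusted p = 0.134), Esrrb at -0.50 and Nanog at -0.33. Limma called 0 of the 10 in the pooled contrast, with 4 at an unadjusted p under 0.05 (8.72% of all genes). With the replicate block it called Klf4 and Esrrb lower in the pooled contrast, where it called 0.341% of genes. With siRNA 1 the block called Klf4, Esrrb and Zfp42 lower and the endothelial marker Tek higher (0.54, adjusted p = 0.0406), against 1.21% of genes, and with siRNA 2 it called Klf4 alone among the markers. The mean over the list was 12.2 to 12.3 on the control arrays and 11.9 to 12.1 on the knockdown arrays. Neural markers, of interest because netrin receptors are abundant in neurons, had 2 of 7 above control (median -0.01), and their mean was 7.92 to 7.94 on the control arrays and 7.80 to 7.92 on the knockdown arrays. Endothelial markers (3 of 5 above, median 0.03, means of 6.96 to 7.12 and 7.08 to 7.22), fibroblast markers (4 of 5 above, median 0.07, means of 7.49 to 7.53 and 7.47 to 7.72) and extraembryonic endoderm markers (5 of 6 above, median 0.17) had 0 members called without the block. For the extraembryonic endoderm markers the median was 0.26 with siRNA 1 and 0.04 with siRNA 2. The part of these marker shifts in the level of Ntn1 was not tested.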

How the data were processed

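The authors deposited log2 values, 1 for each of 35556 probe sets on each of the 6 arrays. The submitters' processing notes name Partek as the software; not given in the sources used here are its version and how background, summarization and normalization were handled. The log base was inferred from the range of 2.69 to 14.6. The number of arrays limits the precision.

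GEO's platform annotation gave 1 symbol to 21789 probe sets, several to 1621, left unnamed, and did not list 12146. Where a gene had several probe sets (999 genes), the brightest was used. All 8 symbols matched RefSeq by gene ID. No build is named, so no coordinates are given.

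All 3 groups were fitted together with limma 3.58.1 in R 4.3.3 (lmFit and eBayes, 3 residual and 3.84 prior degrees of freedom), without a filter, and p-values were adjusted by Benjamini-Hochberg over 19938 genes. Tests are two-sided, at 0.05, and the code was tested on simulated data. Errors are limma standard errors.

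Members, lists and tests were chosen with earlier results of these data known. Every pathway gene called without the block was to be named, and otherwise the 3 of smallest pooled p; further list genes were added after their values were seen. The pathway lists hold 80 symbols, 2 of them older names (Hfe2 and Lphn3) of genes also listed as Hjv and Adgrl3. Genes like Ntn1 were the 5 highest and 3 lowest Pearson correlations among genes brighter than the median with a range of 0.5 or more, without predicted, olfactory or vomeronasal genes.

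Deviations from group means correlated between same-numbered arrays at 0.464 (control and siRNA 1), 0.407 (control and siRNA 2) and 0.461 (both siRNAs), each over 0.1, and same-numbered arrays were therefore treated as pairs in the block; this pairing comes from the data, not the labels, and with 2 arrays a group it is a weak check.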

Additional observations from a re-analysis of the deposited data

How the results depend on the processing

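The pooled difference of Ntn1 lay between -0.86 and -0.79 under the alternatives that could move it, which left out 1 array or rescaled the arrays. Leaving out 1 array gave -0.86 to -0.80. The other alternatives changed only the error or the genes tested, or reused its only probe set, and could only repeat -0.83. Whether Ntn1 was called depended on the settings. In the pooled contrast and with siRNA 1 the count of 1 became 0 in an unmoderated linear model and when all 35556 probe sets were tested. For siRNA 1 it also became 0 when only the groups compared were fitted. Each of these fits called 0 of all genes in these contrasts. With siRNA 2 the count of 0 became 1 with the replicate block, with trend and robust options, and when only the groups compared were fitted. These called 26, 17 and 10 of all genes. Leaving out 1 array gave counts of 0 to 1 in all 3: with any of the 2 control arrays or the 2 siRNA 2 arrays left out it was 0 in each, and limma then called 0 of all genes in these contrasts. Leaving out an siRNA 1 array leaves 1 array in that group, so the calls of these fits are not read. Without siRNA 1 replicate 2 the Ntn1 difference was -0.80 in the pooled contrast and -0.81 with siRNA 1. Without siRNA 1 replicate 1 these were -0.86 and -0.94. Between the siRNAs the count of members called stayed 0 under every alternative. The replicate block changed no other call of a member.

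For the 7 other genes, and for Ntn1 between the siRNAs, 457 values were recomputed and 0 passed (smallest adjusted p 0.0761); 28 changed sign. Many of these values could not change sign. Fits that changed only the errors or the genes tested, or left out an array outside the contrast, repeat the main difference. Dcc was -0.011 with array medians aligned, -0.031 after quantile normalization and -0.046 after cyclic loess in the pooled contrast, -0.021 and -0.046 after these with siRNA 1, and 0.0011 after cyclic loess between the siRNAs. Averaging both Unc5d probe sets gave 0.0053 with siRNA 1. Leaving out 1 array gave, in the pooled contrast, -0.058 to 0.17 for Ntn4, -0.061 to 0.063 for Dcc and -0.17 to 0.17 for Unc5c; with siRNA 1, -0.12 to 0.33 for Ntn4, -0.36 to 0.32 for Unc5c and -0.16 to 0.029 for Unc5d; with siRNA 2, -0.12 to 0.14 for Ntn4, -0.16 to 0.086 for Dcc and -0.029 to 0.054 for Unc5c; and between the siRNAs, -0.32 to 0.13 for Ntn4, -0.20 to 0.047 for Dcc, -0.030 to 0.34 for Unc5b and -0.31 to 0.37 for Unc5c. Fitting only the groups compared gave no separate pooled value, since that contrast uses all 3. The cause of these shifts was not tested, and 2 arrays a group limit every value.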
